A study of Mus musculus with 18 samples.

Results

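Gene expression in the urinary bladder was compared between 3 days and 1 day after cyclophosphamide in mice fed a vitamin A-enriched diet, with 3 mice at each time, 6 of the 18 libraries of the study. Cyclophosphamide is an alkylating drug whose breakdown products are excreted in the urine and injure the bladder lining. All mice were wild-type BALB/c females aged 8 weeks, given cyclophosphamide at 150 mg/kg or saline by intraperitoneal injection. The enriched diet held 566081 UI retinyl acetate per kg by the sample labels (the design text names retinyl palmitate) and began 1 week before the injection. The 6 groups of 3 mice were 3 days after cyclophosphamide on vitamin A, 1 day after cyclophosphamide on vitamin A, both times on normal diet, and 1 day after saline on each diet. Whole bladders were used, and mice were housed 3 per cage, with no record here of which mice shared a cage. In whole tissue, fewer cells of a type and less RNA per cell cannot be told apart. No saline bladders from 3 days were analysed here, so every comparison with saline also differs in the day of collection.

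After acute chemical injury the urothelium sheds its large umbrella cells, and basal and intermediate cells divide to refill the layer. Cells of the wall release chemokines that draw in neutrophils and monocytes, and in later repair monocyte-derived macrophages clear debris while fibroblasts rebuild the matrix of collagens, elastic fibres and proteoglycans. Vitamin A acts mainly through retinoic acid, which binds nuclear receptors and is known to restrain squamous differentiation of the urothelium.

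Libraries held between 19554132 and 32101006 counts. Differences between groups were tested with edgeR's quasi-likelihood test over 19323 named genes, with a spread shared by all 18 libraries, and a gene was called at a Benjamini-Hochberg adjusted p under 0.05. Values per library are counts per 1000000 counts of named genes (CPM). Replicate numbers are those of the titles, and p-values rest on a spread between mice pooled over all 18 libraries. The mean correlation of a library with its group was 0.9694 to 0.9795 in the compared libraries. In the other libraries it was 0.9876 to 0.992, so the pooled spread includes groups more alike than those compared. The 3-day replicate 2 had the lowest mean correlation with its group (0.969), the largest share of counts from genes shorter than 1000 bases (14.2%, against 7.13% to 10.5% in the other 5) and the smallest mitochondrial share (1.68%). The 1-day replicate 3 had the largest mitochondrial share (3.82%, against 1.68% to 2.34% in the others). Uroplakin transcripts, which mark the bladder lining, were abundant: Upk1a, a plaque protein of umbrella cells, had 1051, 1523 and 1650 CPM at 3 days, against 1137, 1144 and 715 CPM at 1 day.

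Between 1 and 3 days, 492 genes rose and 327 fell, 2.55% and 1.69% of those tested, or 4.24% either way. Of these, 503 changed more than 2-fold, and the median log2 change of all genes was 0.01. The number called differed among the alternatives. With only the 6 libraries in the fit, 17 genes passed (7 higher and 10 lower), while DESeq2 on all 18 called 1726 (917 and 809). Leaving out 3-day replicates 1, 2 and 3 in turn gave 595, 721 and 1335, and leaving out 1-day replicates 1, 2 and 3 gave 1293, 366 and 316. Without 3-day replicate 2 and 1-day replicate 3 together, 237 genes were called. Counts of list members below refer to the fit over all 18 libraries, and in the fit with 6 libraries no list count exceeded 2. Many genes below were named by size of change or p in this same comparison. That their values do not overlap between the times is therefore no separate support, and the share of all genes without overlap is not given. Fits with 1 library left out kept the other groups, and with only the 6 libraries 12 of the 101 named genes past the threshold kept their call. The plot of listed genes shows how the members of each list spread around no change.

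**Figure D1:**
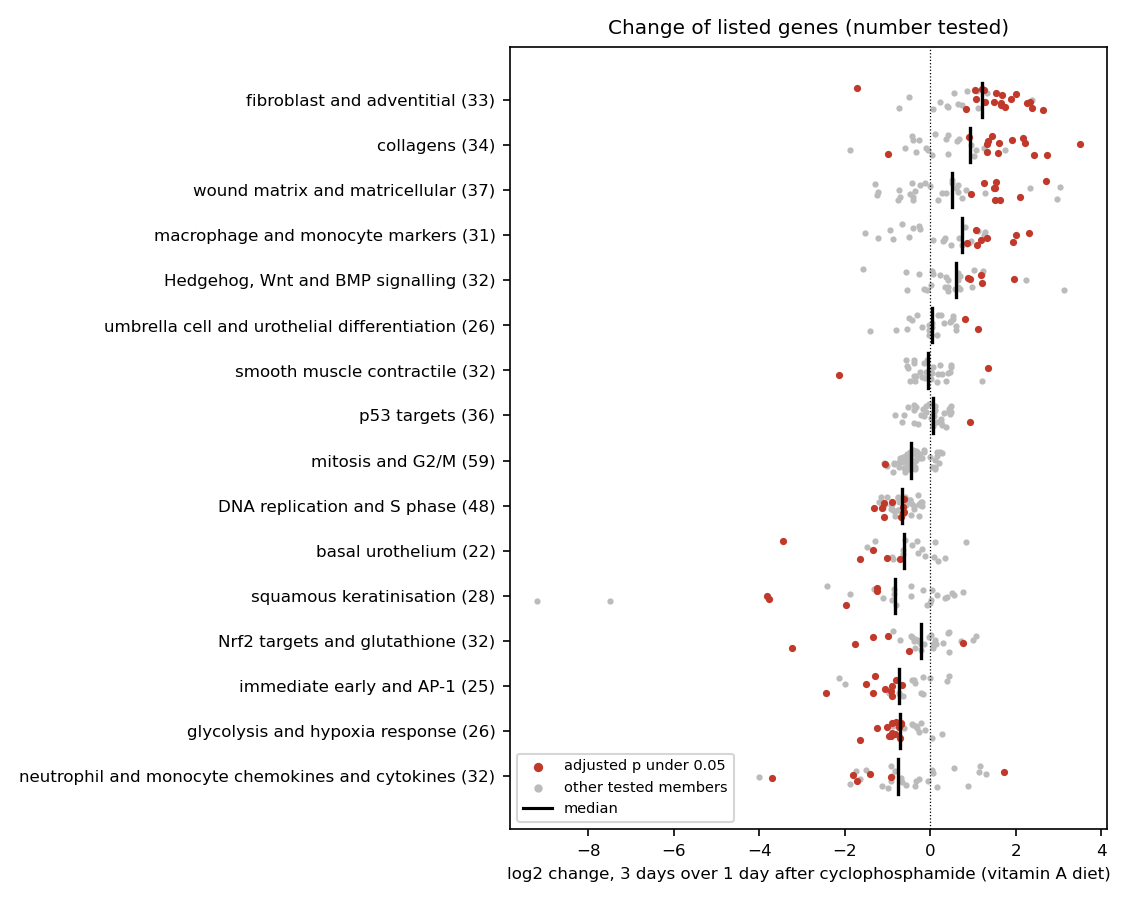
Log2 change from 1 day to 3 days after cyclophosphamide on the vitamin A diet for the tested members of 16 gene lists (number tested in parentheses). Each point is a gene, red where the adjusted p is under 0.05, and the black bar is the list's median. The medians run from 1.21 in fibroblast genes to -0.82 in squamous keratinisation genes.

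Connective tissue genes gave the largest number of risen members among the 38 lists. Of 33 fibroblast and adventitial genes, 18 rose and 1 fell, with a median log2 change of 1.21. The count of 18 risen became 9 without 1-day replicate 3, 10 without 3-day replicate 1, 3-day replicate 2 or 1-day replicate 2 and 3 without 3-day replicate 2 and 1-day replicate 3 together. Of 34 collagens 13 rose and 1 fell, with a median of 0.94. The count of 13 risen became 8 without 3-day replicate 1 or 1-day replicate 2 and 9 without 3-day replicate 2 and 1-day replicate 3 together. Among wound matrix and matricellular genes 9 of 37 rose and none passed the test downwards, with a median of 0.52. The count of 9 risen stayed within 1.5 times of itself with any single library left out and became 6 without 3-day replicate 2 and 1-day replicate 3 together.

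Fibrillar collagens are the load-bearing fibres of the wall. Col1a1, a chain of type I collagen, had 3151, 1448 and 1472 CPM at 3 days, against 748, 283 and 285 CPM at 1 day (log2 change 2.22 ± 0.35 (SE), adjusted p = 0.002). Its partner chain Col1a2 had 3359, 2252 and 1492 CPM at 3 days, against 686, 323 and 323 CPM at 1 day (log2 change 2.44 ± 0.31 (SE), adjusted p = 2.9e-04). Col3a1, the chain of type III collagen, had 4849, 3245 and 2128 CPM at 3 days, against 1390, 513 and 836 CPM at 1 day (log2 change 1.92 ± 0.31 (SE), adjusted p = 0.0024). For all 3 genes every 3-day bladder lay above every 1-day bladder, and 3-day replicate 1 was the highest. The same chains had 1307, 1121 and 1211 CPM after saline for Col1a1 and 1827, 1638 and 1671 CPM after saline for Col3a1, and at 3 days neither differed from saline past the threshold (adjusted p = 0.27 and 0.071). Col14a1, a collagen that sits on fibril surfaces, showed the widest change of the list: 254, 159 and 68.8 CPM at 3 days, against 24.3, 7.05 and 11.9 CPM at 1 day (log2 change 3.50 ± 0.41 (SE), adjusted p = 1.8e-04). Col14a1 had 275, 250.1 and 259 CPM after saline. Col6a3, a chain of the beaded-filament collagen VI, had 412, 285 and 259.7 CPM at 3 days, against 149, 74.7 and 99.8 CPM at 1 day (log2 change 1.58 ± 0.22 (SE), adjusted p = 7.9e-04). The member of the collagen list that fell was Col25a1 (log2 change -0.98, adjusted p = 0.048), a call lost without 3-day replicate 2 or 3 or without 1-day replicate 2 or 3. Col17a1, a collagen of the basal lining, is not on that list and is given with the basal genes. The basement membrane chains Col4a1 and Col4a2 did not pass the test (-0.09 and -0.33).

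The risen wound matrix genes included Fbln5 and Eln, of elastic fibres, and the enzymes Lox and Loxl2. Fbln5, which joins elastin to cells, had 75.7, 77.1 and 32.7 CPM at 3 days, against 12.1, 6.79 and 10.1 CPM at 1 day (log2 change 2.70 ± 0.26 (SE), adjusted p = 1.8e-05). Fbln5 had 103, 104 and 99.2 CPM after saline. Eln, elastin itself, had 147, 113 and 168 CPM at 3 days, against 62.4, 34.9 and 57.5 CPM at 1 day (log2 change 1.49 ± 0.21 (SE), adjusted p = 7.9e-04). Lox and Loxl2 encode enzymes that cross-link collagen and elastin. Lox had 50.1, 36.1 and 44.4 CPM at 3 days, against 12.4, 11.4 and 18.8 CPM at 1 day (log2 change 1.63 ± 0.22 (SE), adjusted p = 6.1e-04). Loxl2 had 121, 87.5 and 123 CPM at 3 days, against 39.3, 30.97 and 46.1 CPM at 1 day (log2 change 1.53 ± 0.19 (SE), adjusted p = 2.8e-04), and it was also above saline at 3 days (51.7, 52.8 and 45.2 CPM after saline; log2 difference 1.13 ± 0.19, adjusted p = 7.1e-04). For each of these 4 genes the 3-day and 1-day bladders did not overlap, and each call held with any single library left out. Postn and Tnc, matricellular proteins of early wounds, did not pass edgeR's test in these mice: Postn had 271, 313 and 214 CPM at 3 days, against 352, 304 and 722 CPM at 1 day (adjusted p = 0.11, and 0.045 with DESeq2), and Tnc had 229, 158 and 164 CPM at 3 days, against 194, 233 and 472 CPM at 1 day (adjusted p = 0.15). Tnc passed without 1-day replicate 1 (adjusted p = 0.037).

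**Figure D2:**
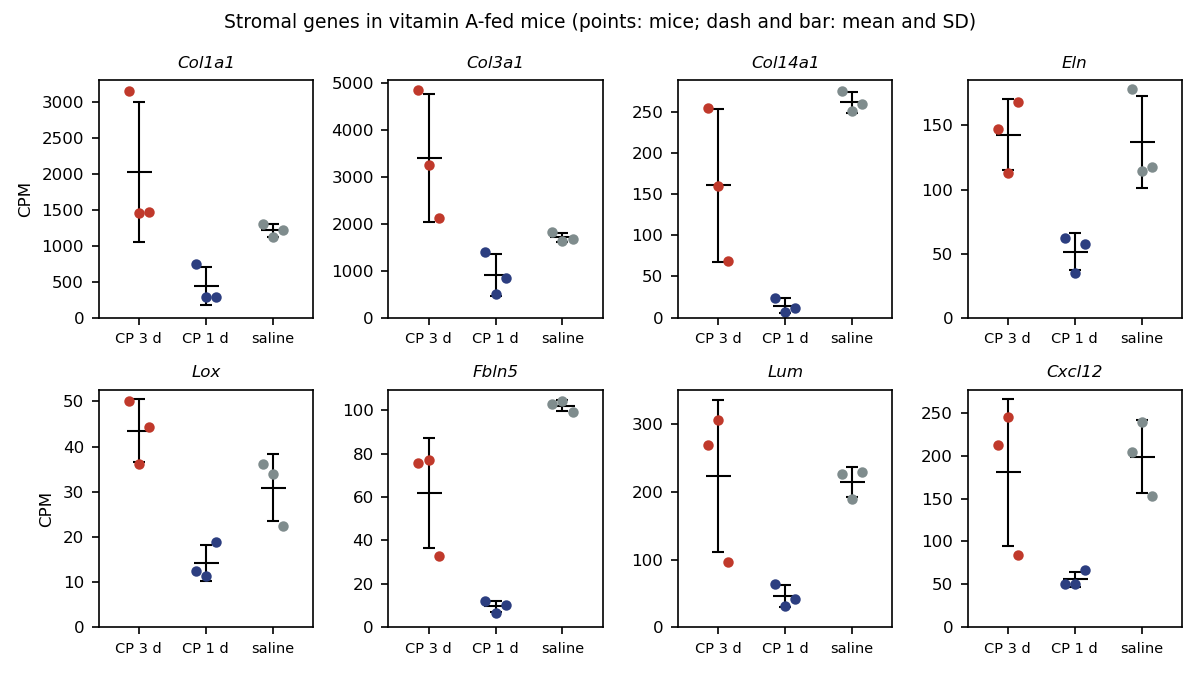
CPM of 8 stromal genes in mice fed vitamin A, 3 days after cyclophosphamide (red), 1 day after cyclophosphamide (blue) and 1 day after saline (grey). Points are mice, and the dash and bar are the mean and SD of 3 mice. In all 8 genes the 3 red points lie above the 3 blue points.

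The fibroblast list holds proteoglycans and secreted proteins of quiescent and adventitial fibroblasts. Lum, the proteoglycan lumican, had 269, 306 and 96.03 CPM at 3 days, against 63.6, 31.4 and 42.5 CPM at 1 day (log2 change 2.32 ± 0.32 (SE), adjusted p = 7.3e-04), with 226, 189.9 and 229 CPM after saline. Mfap5, a microfibril protein of adventitial cells, had 13.5, 19.5 and 11.6 CPM at 3 days, against 4.42, 2.83 and 4.18 CPM at 1 day (log2 change 2.0 ± 0.28 (SE), adjusted p = 7.4e-04). Smoc2, a calcium-binding matrix protein, had 114, 97.6 and 51.9 CPM at 3 days, against 40.1, 16.7 and 23.6 CPM at 1 day (log2 change 1.74 ± 0.28 (SE), adjusted p = 0.002). Efemp1, the fibulin-3 gene, had 92.3, 97.02 and 37.6 CPM at 3 days, against 34.01, 14.2 and 14.1 CPM at 1 day (log2 change 1.90 ± 0.32 (SE), adjusted p = 0.0027). None of these 4 overlapped between the times, and in all 4 the 3-day replicate 3 was the lowest of its group. Pi16, a marker of adventitial progenitor cells, was below saline at 3 days: it had 89.6, 84.9 and 26.8 CPM at 3 days, against 49.9, 19.6 and 13.1 CPM at 1 day (adjusted p = 0.076, and 0.041 with DESeq2) and 276, 215 and 224 CPM after saline (log2 difference at 3 days -1.84 ± 0.41, adjusted p = 0.01). The change of Pi16 between the times passed without 3-day replicate 3 (adjusted p = 0.0062) or without 1-day replicate 1 (adjusted p = 0.0036). Il33, an alarmin cytokine that stands on this list and on the cytokine list, was the fibroblast list member that fell (log2 change -1.70, adjusted p = 0.026). Its call was lost without 3-day replicate 1 or 2 or without 1-day replicate 2 or 3.

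Several of the largest rises were genes of extracellular or membrane proteins. Cntn4, a cell adhesion molecule of the contactin family best known from nerve, had 12.7, 13.4 and 4.67 CPM at 3 days, against 0.3396, 0.0514 and 0.398 CPM at 1 day (log2 change 5.28 ± 0.62 (SE), adjusted p = 1.8e-04). Cntn4 had 15.5, 17.7 and 14.5 CPM after saline. Fndc1, a fibronectin-domain protein, had 79.96, 38.6 and 22.9 CPM at 3 days, against 10.3, 2.26 and 2.29 CPM at 1 day (log2 change 3.26 ± 0.50 (SE), adjusted p = 0.0017). Abi3bp, a matrix protein, had 32.1, 27.9 and 7.24 CPM at 3 days, against 5.38, 1.65 and 2.64 CPM at 1 day (log2 change 2.82 ± 0.43 (SE), adjusted p = 0.0013). Cntn4, Fndc1 and Abi3bp did not overlap between times, and their calls held with any single library left out. The calls of Pdgfrl (log2 change 2.98 ± 0.56) and Cpxm1 (2.90 ± 0.52) held likewise. Without 3-day replicate 2 and 1-day replicate 3 together, Fndc1, Abi3bp, Pdgfrl and Cpxm1 were lost (adjusted p = 0.051 to 0.097). Cyp1a1, an oxygenase induced through the aryl hydrocarbon receptor, had 11.8, 5.98 and 24.3 CPM at 3 days, against 3.202, 0.7202 and 0.995 CPM at 1 day (log2 change 3.11 ± 0.68 (SE), adjusted p = 0.016). The call was lost without 1-day replicate 2 or 3 (adjusted p = 0.081 to 0.091). Inmt, a methyltransferase of small amines, had 47.99, 69.4 and 2.73 CPM at 3 days, against 4.95, 1.8 and 1.79 CPM at 1 day (log2 change 3.85 ± 0.89 (SE), adjusted p = 0.027), and here 3-day replicate 3 lay within the 1-day values. Inmt was lost without 3-day replicate 1 or 2 or without 1-day replicate 2 or 3 (adjusted p = 0.066 to 0.11). Chodl, Lrrc17 and Myoc also overlapped between the times, with 3-day replicate 3 the lowest of its group. They were lost without 3-day replicate 1 or 2 or without 1-day replicate 2 or 3 (adjusted p = 0.064 to 0.092) for Chodl, without 3-day replicate 1 or 2 or without 1-day replicate 2 or 3 (adjusted p = 0.061 to 0.099) for Lrrc17 and without 3-day replicate 2 or without 1-day replicate 2 or 3 (adjusted p = 0.087 to 0.11) for Myoc.

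**Figure D3:**
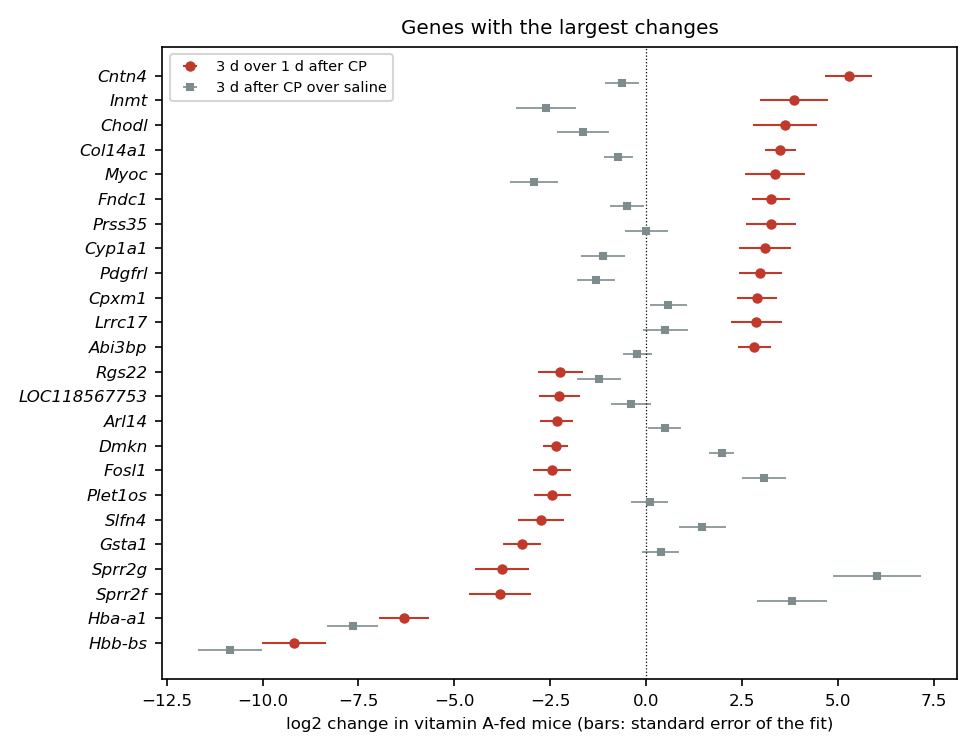
Log2 change, with its standard error, of the 12 most risen and 12 most fallen genes past the threshold with a mean of at least 1 log2 CPM. Red circles give 3 days over 1 day after cyclophosphamide, grey squares 3 days after cyclophosphamide over saline, all on vitamin A. The sizes run from 5.28 for Cntn4 to -9.17 for Hbb-bs.

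Growth factors that signal between lining and stroma moved in part. Of 32 Hedgehog, Wnt and BMP genes, 5 rose and none passed the test downwards (median 0.61). The count of 5 risen became 3 without 3-day replicate 1, 3-day replicate 2 or 1-day replicate 2, 9 without 3-day replicate 3 and 4 without 3-day replicate 2 and 1-day replicate 3 together. Bmp5, a ligand of the bone morphogenetic protein family, had 62.3, 37.4 and 29.9 CPM at 3 days, against 19.6, 7.67 and 6.57 CPM at 1 day (log2 change 1.96 ± 0.32 (SE), adjusted p = 0.0024). Ptch1, the Hedgehog receptor whose own transcription Hedgehog signalling induces, had 134, 63.01 and 95.8 CPM at 3 days, against 56.3, 48.5 and 48.95 CPM at 1 day (log2 change 0.93 ± 0.19 (SE), adjusted p = 0.0091). Dkk2, a secreted modulator of Wnt signalling, had 33.2, 30.5 and 26.6 CPM at 3 days, against 14.8, 15.2 and 9.501 CPM at 1 day (log2 change 1.21 ± 0.21 (SE), adjusted p = 0.0032). None of these overlapped between the times. Shh, the Hedgehog ligand made by basal urothelium, had 212, 219 and 220.1 CPM at 3 days, against 187, 209.8 and 124 CPM at 1 day and did not pass (adjusted p = 0.27). Of the stromal matrix proteases, Mmp2, a gelatinase, had 499, 373 and 197 CPM at 3 days, against 151, 91 and 84.9 CPM at 1 day (log2 change 1.73 ± 0.28 (SE), adjusted p = 0.0022). Adamts2, which trims procollagen, had 106, 63.1 and 41.4 CPM at 3 days, against 29.4, 14.3 and 26.8 CPM at 1 day (log2 change 1.59 ± 0.26 (SE), adjusted p = 0.0026).

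The urokinase receptor gene Plaur fell. In all, 4 of 31 tested members of the protease and plasminogen list rose and 4 fell. Plaur had 23.2, 31.9 and 31.1 CPM at 3 days, against 47.2, 92.1 and 118 CPM at 1 day (log2 change -1.56 ± 0.27 (SE), adjusted p = 0.0036). The times did not overlap for Plaur. Fallen members also included Plat, tissue plasminogen activator (log2 change -1.23), and Adam8, a membrane protease (-1.40). The count of 4 fallen became 2 without 3-day replicate 2, 1-day replicate 2 or 1-day replicate 3 and 2 without 3-day replicate 2 and 1-day replicate 3 together. The count of 4 risen became 2 without 3-day replicate 1 or 1-day replicate 2, 8 without 3-day replicate 3 and 2 without 3-day replicate 2 and 1-day replicate 3 together.

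In the lining, Krt5 and 4 other members of the basal list were lower at 3 days. Lists can share members, so the counts of different lists are not separate. Of 22 basal urothelium genes, 5 fell and none passed the test upwards (median -0.62). The count of 5 fallen became 2 without 3-day replicate 2 or 1-day replicate 2, 3 without 1-day replicate 3, 8 without 3-day replicate 3 or 1-day replicate 1 and 1 without 3-day replicate 2 and 1-day replicate 3 together. Krt5, the keratin of basal cells, had 1170, 958 and 1615 CPM at 3 days, against 2097, 3164 and 2274 CPM at 1 day (log2 change -1.0 ± 0.19 (SE), adjusted p = 0.0058), and it remained above saline (567, 636 and 581 CPM after saline; adjusted p = 0.0017). Itga3, an integrin that binds laminin, had 177, 133 and 291 CPM at 3 days, against 339, 591 and 590.2 CPM at 1 day (log2 change -1.33 ± 0.23 (SE), adjusted p = 0.0036). Krt5 and Itga3 did not overlap between the times and kept their calls in every single omission. Itga3 was lost without 3-day replicate 2 and 1-day replicate 3 together (adjusted p = 0.061). Col17a1, a hemidesmosome collagen, had 67.7, 33.3 and 68.3 CPM at 3 days, against 99.6, 232 and 191 CPM at 1 day (log2 change -1.63 ± 0.34 (SE), adjusted p = 0.01). The call was lost without 3-day replicate 2 or without 1-day replicate 2 (adjusted p = 0.055 to 0.06). Krt14, a keratin of the basal progenitor state, had 23.1, 13.2 and 98.04 CPM at 3 days, against 77.4, 135 and 116 CPM at 1 day (adjusted p = 0.27), and the 3-day replicate 3 lay within the 1-day range. Without that replicate Krt14 passed (adjusted p = 0.0078). Trp63, the basal cell transcription factor, had 235, 159.5 and 254 CPM at 3 days, against 251, 279.7 and 176 CPM at 1 day (adjusted p = 0.76).

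Squamous keratinisation genes had 5 of 28 members fallen and none risen (median -0.82, also with the 2 members that were at 0 counts in all 3-day bladders set at their bound). The count of 5 fallen became 2 without 3-day replicate 1, 3-day replicate 2, 1-day replicate 2 or 1-day replicate 3, 8 without 3-day replicate 3, 9 without 1-day replicate 1 and 1 without 3-day replicate 2 and 1-day replicate 3 together. Sprr2g, a small proline-rich protein of the cornified envelope, had 4.34, 4.71 and 1.35 CPM at 3 days, against 11.8, 70.1 and 59.5 CPM at 1 day (log2 change -3.77 ± 0.71 (SE), adjusted p = 0.0058). Sprr2g had 0, 0.0778 and 0.0834 CPM after saline. Sbsn, a secreted protein of stratified epithelium, had 25.03, 27 and 18.2 CPM at 3 days, against 47.2, 66.5 and 54.2 CPM at 1 day (log2 change -1.24 ± 0.23 (SE), adjusted p = 0.0049). Dmkn, dermokine, is not on the list but was among the largest falls with 5.45, 11.4 and 9.21 CPM at 3 days, against 27.8, 60.6 and 48.2 CPM at 1 day (log2 change -2.36 ± 0.32 (SE), adjusted p = 5.7e-04). These 3 genes did not overlap between the times. Krt13, a keratin of stratified non-keratinised epithelium, had 7.85, 7.86 and 8.901 CPM at 3 days, against 12.9, 39.1 and 45.4 CPM at 1 day (log2 change -1.98 ± 0.46 (SE), adjusted p = 0.022), with 1-day replicate 1 far below the other 1-day mice. The call was lost without 3-day replicate 1 or 2 or without 1-day replicate 2 or 3 (adjusted p = 0.061 to 0.1). The Sprr2 genes are near-identical copies, and reads shared among them are uncertain.

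Of 26 genes of umbrella cells and urothelial differentiation, 2 rose (7.69%, against 2.55% of all genes) and none passed the test downwards (median 0.04). Risen members numbered 4 without 3-day replicate 1, 1 without 3-day replicate 3 and 3 without 1-day replicate 1. They numbered 0 without 1-day replicate 2 or 3, and 0 without 3-day replicate 2 and 1-day replicate 3 together. Upk3a, a uroplakin, had 881, 1525 and 1283 CPM at 3 days, against 841, 557 and 362 CPM at 1 day (log2 change 1.11 ± 0.26 (SE), adjusted p = 0.021). Upk3a had 1606, 1587 and 1623 CPM after saline. The 3-day bladders lay above the 1-day bladders, and the call was lost without 3-day replicate 2 or without 1-day replicate 2 or 3 (adjusted p = 0.063 to 0.096). Snx31, a sorting nexin of uroplakin vesicles, had 497, 449 and 699 CPM at 3 days, against 402, 357 and 185 CPM at 1 day (log2 change 0.82 ± 0.22 (SE), adjusted p = 0.044), lost without 3-day replicate 3 or without 1-day replicate 2 or 3 (adjusted p = 0.06 to 0.15). Upk2, another uroplakin, had 456, 564 and 720.0 CPM at 3 days, against 475, 405 and 279 CPM at 1 day (adjusted p = 0.07, and 0.018 with DESeq2); it passed without 3-day replicate 1 or without 1-day replicate 1 (adjusted p = 0.026 to 0.033). Krt20, the umbrella cell keratin, had 48.7, 74.2 and 83.5 CPM at 3 days, against 73.5, 79.4 and 50.7 CPM at 1 day and 112, 126 and 134 CPM after saline. At 3 days Krt20 did not differ from 1 day past the threshold (adjusted p = 0.93) and was below saline (log2 difference -0.85 ± 0.19, adjusted p = 0.0083).

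**Figure D4:**
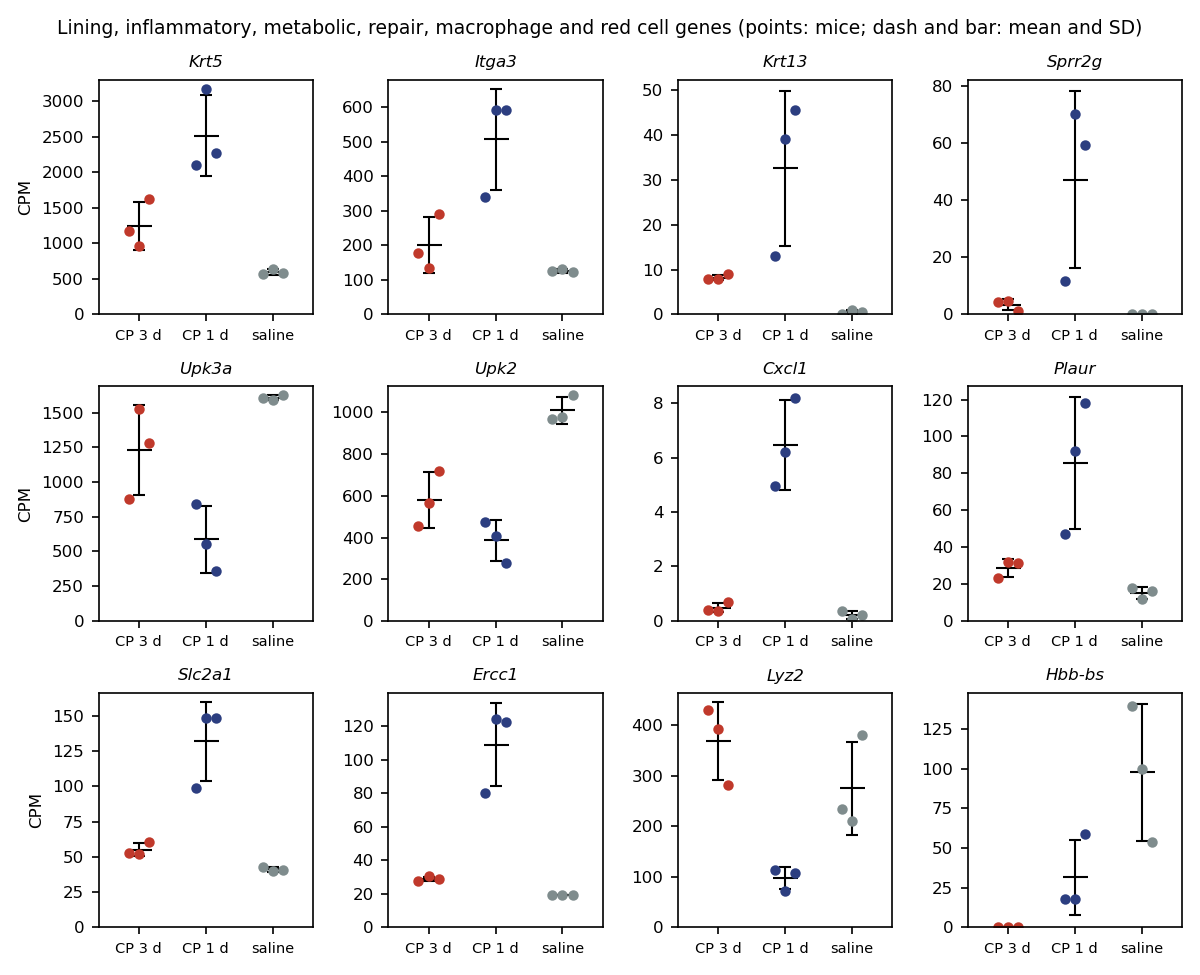
CPM of 12 genes in mice fed vitamin A, 3 days after cyclophosphamide (red), 1 day after cyclophosphamide (blue) and 1 day after saline (grey). Points are mice, and the dash and bar are the mean and SD of 3 mice. Krt5, Itga3, Krt13, Sprr2g, Cxcl1, Plaur, Slc2a1, Ercc1 and Hbb-bs are lower at 3 days than at 1 day in every mouse, Upk3a and Lyz2 are higher, and Upk2 overlaps.

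Most genes of DNA replication were above saline at 3 days. All 48 tested members had log2 changes below 0 from 1 to 3 days (median -0.66), and 10 of them fell past the threshold. The count of 10 fallen became 1 without 3-day replicate 1 or 1-day replicate 2, 2 without 3-day replicate 2, 4 without 1-day replicate 3, 5 without 1-day replicate 1, 30 without 3-day replicate 3 and 1 without 3-day replicate 2 and 1-day replicate 3 together. Against saline, 44 of the 48 were higher at 3 days, where 4.32% of all genes were (median 1.71). Cdc6, which loads the replicative helicase, had 13.6, 10.7 and 29.1 CPM at 3 days, against 48.6, 42.8 and 42.8 CPM at 1 day (log2 change -1.31 ± 0.27 (SE), adjusted p = 0.0092). Cdc6 had 6.56, 8.01 and 7.75 CPM after saline. The times did not overlap for Cdc6, and 3-day replicate 3 was the highest of its group. Mcm3, a helicase subunit, had 29.5, 26.5 and 69.3 CPM at 3 days, against 85.6, 103 and 80.5 CPM at 1 day (log2 change -1.09 ± 0.27 (SE), adjusted p = 0.027), lost without 3-day replicate 1 or 2 or without 1-day replicate 2 or 3 (adjusted p = 0.058 to 0.097). Pcna, the polymerase clamp, had 72.7, 74.7 and 113 CPM at 3 days, against 127, 139 and 138 CPM at 1 day (log2 change -0.62 ± 0.16 (SE), adjusted p = 0.039), lost without 3-day replicate 1 or 2 or without 1-day replicate 2 or 3 (adjusted p = 0.081 to 0.13).

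Mitotic genes stayed well above saline at 3 days. Of 59 genes of mitosis and G2/M, 1 fell and none rose (median -0.44), while 58 were above saline at 3 days (median 3.86). Mki67, the proliferation antigen, had 52.1, 58.4 and 142 CPM at 3 days, against 198, 124 and 99.9 CPM at 1 day (adjusted p = 0.41). Mki67 had 4.27, 1.63 and 8.88 CPM after saline. Cdk1, the mitotic kinase, had 23.2, 38.5 and 38.9 CPM at 3 days, against 56.2, 37.04 and 42.03 CPM at 1 day (adjusted p = 0.57). Cdk1 had 1.36, 1.28 and 1.96 CPM after saline. In both genes the 2 times overlapped, and every bladder after cyclophosphamide lay above every saline bladder. The fallen member was Incenp, a subunit of the chromosomal passenger complex, with 26.4, 18.6 and 43.6 CPM at 3 days, against 85.1, 57.4 and 44.97 CPM at 1 day (log2 change -1.06 ± 0.28 (SE), adjusted p = 0.036). The call was lost without 3-day replicate 1 or 2 or without 1-day replicate 1 or 2 (adjusted p = 0.071 to 0.11). In the RefSeq promoters, the cell cycle element CHR, searched as TTTGAA or TTCGAA on both strands of 300 bases, was found in 38 of the 49 mitotic genes that had an entry (77.6%) and in 19.4% of 27025 promoters.

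Cyclophosphamide cross-links DNA, and Ercc1, a partner of the nuclease that unhooks such cross-links, fell at 3 days. It had 27.6, 30.4 and 28.7 CPM at 3 days, against 80.1, 124 and 122 CPM at 1 day (log2 change -1.90 ± 0.17 (SE), adjusted p = 1.8e-05). Ercc1 had 19.1, 19.3 and 19.2 CPM after saline. The times did not overlap, and the call held in every single omission. Ercc1 shares 518 bases with Cd3eap on the opposite strand, whose summed counts were 1582 at 3 days and 1244 at 1 day. In all, 3 of 34 crosslink repair genes fell and none rose (median -0.58), the others being Blm, a helicase, and Brca2, a homologous recombination gene. The Blm call was lost without 3-day replicate 1 or 2 or without 1-day replicate 1, 2 or 3 (adjusted p = 0.056 to 0.093), and the Brca2 call without 3-day replicate 1 or 2 or without 1-day replicate 1, 2 or 3 (adjusted p = 0.055 to 0.11). Between the times, 1 of 36 targets of p53 rose and 0 fell (median 0.07), a risen share of 2.78% against 2.55% of all genes. At 3 days 23 of them were above saline, where 4.32% of all genes were. Cdkn1a, the p53-induced cell cycle inhibitor, had 249.7, 243 and 249.8 CPM at 3 days, against 254, 265 and 292 CPM at 1 day (adjusted p = 0.68). Cdkn1a had 72, 67.9 and 71.8 CPM after saline (log2 difference from saline 1.80 ± 0.13, adjusted p = 4.5e-07). The p53 target that rose was Bbc3, which encodes the death protein PUMA (log2 change 0.93 ± 0.24 (SE), adjusted p = 0.035), and it was lost without 3-day replicate 1 or 2 or without 1-day replicate 1, 2 or 3 (adjusted p = 0.061 to 0.11).

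The neutrophil chemokine Cxcl1 was lower and the macrophage transcripts Lyz2 and Csf1r were higher at 3 days. Of 32 tested chemokine and cytokine genes, 5 fell and 1 rose (median -0.75). The count of 5 fallen became 2 without 3-day replicate 2, 3 without 1-day replicate 3 and 2 without 3-day replicate 2 and 1-day replicate 3 together. Cxcl1, a neutrophil chemokine, had 0.413, 0.359 and 0.6895 CPM at 3 days, against 4.95, 6.22 and 8.21 CPM at 1 day (log2 change -3.69 ± 0.52 (SE), adjusted p = 7.9e-04). Il1rn, the interleukin-1 receptor antagonist, had 12.5, 13.2 and 33.4 CPM at 3 days, against 37.8, 100.3 and 69.5 CPM at 1 day (log2 change -1.80 ± 0.37 (SE), adjusted p = 0.0098). Ptges, a prostaglandin E synthase, had 75.2, 58.3 and 57.7 CPM at 3 days, against 115, 129 and 118 CPM at 1 day (log2 change -0.91 ± 0.17 (SE), adjusted p = 0.0053). None of these 3 overlapped between the times; Il1rn was lost without 3-day replicate 2 or without 1-day replicate 2 (adjusted p = 0.056). The riser was Cxcl12, a chemokine of stromal cells, with 213, 245 and 83.8 CPM at 3 days, against 50.8, 50.6 and 66.3 CPM at 1 day (log2 change 1.72 ± 0.28 (SE), adjusted p = 0.0024). Il6, Il1b and Cxcl2 did not pass (adjusted p = 0.49, 0.28 and 0.14), though Cxcl2 did without 3-day replicate 1 (adjusted p = 0.048).

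Of the neutrophil markers, 14 of 22 were tested and 1 fell, Cxcr2, the receptor for such chemokines (0.496, 0 and 0.313 CPM at 3 days, against 2.13, 3.704 and 3.03 CPM at 1 day; log2 change -3.45 ± 0.87 (SE), adjusted p = 0.031), lost without 3-day replicate 2 or without 1-day replicate 2 or 3 (adjusted p = 0.052 to 0.087). The summed level of the 22 markers was 38.5, 28.3 and 24.8 CPM at 3 days, against 35.1, 42.5 and 80.5 CPM at 1 day, so the times overlapped, and Retnlg was at 0 in all 6. S100a8, a granulocyte protein, had 0.124, 0 and 0.157 CPM at 3 days, against 1.12, 1.8 and 5.22 CPM at 1 day (adjusted p = 0.068), and passed with DESeq2 (adjusted p = 0.0069), which called 3 of these markers fallen and 1 risen. Among macrophage and monocyte markers, 8 of 31 tested genes rose and none fell past the threshold (median 0.74). The count of 8 risen became 4 without 3-day replicate 1 or 1-day replicate 2, 5 without 1-day replicate 3 and 4 without 3-day replicate 2 and 1-day replicate 3 together. The summed level of this list was 1787, 1503 and 1091 CPM at 3 days, against 936, 634 and 798 CPM at 1 day.

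Lyz2, the lysozyme of macrophages and granulocytes, had 429, 393 and 282 CPM at 3 days, against 113, 72.7 and 107 CPM at 1 day (log2 change 1.94 ± 0.23 (SE), adjusted p = 1.8e-04). Lyz2 had 234, 211 and 381 CPM after saline. Gpnmb, a membrane glycoprotein of phagocytes, had 189, 127 and 104 CPM at 3 days, against 46.96, 18.9 and 19.3 CPM at 1 day (log2 change 2.32 ± 0.32 (SE), adjusted p = 7.2e-04). Csf1r, the receptor that macrophages need to survive, had 94.2, 52.2 and 43.7 CPM at 3 days, against 31.97, 19.3 and 24.8 CPM at 1 day (log2 change 1.33 ± 0.23 (SE), adjusted p = 0.003). C1qa, a chain of complement C1q, had 188, 243 and 121 CPM at 3 days, against 96.8, 70.5 and 80.1 CPM at 1 day (log2 change 1.19 ± 0.23 (SE), adjusted p = 0.0073). None of the 4 overlapped between the times, and all 4 calls held in every single omission. With only the 6 libraries the calls of Gpnmb, Csf1r and C1qa were lost (adjusted p = 0.07, 0.14 and 0.16). The C1qa call was also lost without 3-day replicate 2 and 1-day replicate 3 together (adjusted p = 0.1). Of the 4 genes C1qa was also above saline at 3 days (adjusted p = 0.015). Arg1, an enzyme of early wound macrophages, had 3.06, 0.478 and 1.598 CPM at 3 days, against 3.93, 1.34 and 9.35 CPM at 1 day and did not pass (adjusted p = 0.27).

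The class II gene H2-Aa was below saline at 3 days. Of 18 tested MHC class II and dendritic cell genes, 1 rose between the times, Cd86, a costimulatory molecule (log2 change 1.79 ± 0.44 (SE), adjusted p = 0.027; lost without 3-day replicate 1 or without 1-day replicate 2 or 3 (adjusted p = 0.081 to 0.12)), and 7 were below saline at 3 days, where 1.67% of all genes were. H2-Aa, a class II chain, had 22.4, 18.9 and 12.7 CPM at 3 days, against 15.8, 11.2 and 13.03 CPM at 1 day (adjusted p = 0.35). H2-Aa had 87.2, 65.98 and 139.9 CPM after saline (log2 difference from saline -2.45 ± 0.26, adjusted p = 9.4e-06). With edgeR 0 of 30 tested T, B and natural killer cell markers changed between the times (2 at an unadjusted p under 0.05, 0 with DESeq2), and 3 were below saline at 3 days. Their summed level was 26.6, 17.1 and 14.3 CPM at 3 days, against 19.4, 13.7 and 15.4 CPM at 1 day, and 40.9, 36.7 and 116 CPM after saline. Interferon response genes gave no edgeR call in either direction, with 5 at an unadjusted p under 0.05 and 1 risen with DESeq2 (0 of 40, median 0.12).

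Immediate early genes, which respond within minutes to growth factors and stress, had 10 of 25 members fallen and none risen (median -0.73). The count of 10 fallen became 3 without 1-day replicate 3, 5 without 3-day replicate 1, 6 without 1-day replicate 2 and 2 without 3-day replicate 2 and 1-day replicate 3 together. Fosl1, an AP-1 subunit of migrating epithelium, had 3.14, 2.99 and 3.35 CPM at 3 days, against 12.7, 14.4 and 25.3 CPM at 1 day (log2 change -2.45 ± 0.49 (SE), adjusted p = 0.0088). The call was lost without 1-day replicate 3 (adjusted p = 0.054). Ier3, an early response gene, had 37.2, 37.6 and 45.1 CPM at 3 days, against 84.7, 109 and 152 CPM at 1 day (log2 change -1.51 ± 0.28 (SE), adjusted p = 0.0053). Klf6, an early zinc-finger factor, had 93.3, 85.02 and 83.4 CPM at 3 days, against 119, 156 and 215 CPM at 1 day (log2 change -0.89 ± 0.17 (SE), adjusted p = 0.0052). Zfp36, which destabilises cytokine transcripts, had 45.4, 59.2 and 59.6 CPM at 3 days, against 92.9, 131 and 122 CPM at 1 day (log2 change -1.05 ± 0.20 (SE), adjusted p = 0.0052). All 4 were lower in every 3-day bladder. Fosl1 and Zfp36 each overlap a gene on the opposite strand (Ccdc85b and Paf1), and whether counting used strand is not given in the sources used here, so their reads are uncertain. Fos had 21.4, 23.9 and 24.7 CPM at 3 days, against 92.03, 103 and 89.2 CPM at 1 day without overlap. It did not pass with edgeR on all 18 libraries (adjusted p = 0.064) and passed with only the 6 libraries (adjusted p = 0.0084) and with DESeq2 (adjusted p = 0.019). Of the EGF family, Hbegf, a growth factor for urothelium, had 13.5, 11.1 and 12.8 CPM at 3 days, against 21.7, 41.1 and 53.4 CPM at 1 day (log2 change -1.63 ± 0.35 (SE), adjusted p = 0.013), lost without 1-day replicate 3 (adjusted p = 0.075). Areg, another ligand of the EGF receptor, had 8.92, 6.38 and 20.4 CPM at 3 days, against 16.1, 43.1 and 97.4 CPM at 1 day (adjusted p = 0.063, and 0.045 with DESeq2) and passed without 3-day replicate 3 or without 1-day replicate 1 (adjusted p = 0.012 to 0.033).

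Of 26 tested genes of glycolysis and the response to low oxygen 13 fell at 3 days and none rose, and 24 had log2 changes below 0 (median -0.72). The count of 13 fallen became 8 without 1-day replicate 3 and 9 without 3-day replicate 2 and 1-day replicate 3 together. Hypoxia-inducible factors bind a short element with the core ACGTG, and the promoters of fallen members that hold it are shown here for the glucose carrier Slc2a1, the glycolytic enzyme Pgk1, the prolyl hydroxylase Egln3 and the lactate carrier Slc16a3. They come from RefSeq on build GRCm38.p6, each from 250 bases before to 50 after the gene's start, in lower case with ACGTG (or its reverse complement CACGT) in capitals.
Slc2a1: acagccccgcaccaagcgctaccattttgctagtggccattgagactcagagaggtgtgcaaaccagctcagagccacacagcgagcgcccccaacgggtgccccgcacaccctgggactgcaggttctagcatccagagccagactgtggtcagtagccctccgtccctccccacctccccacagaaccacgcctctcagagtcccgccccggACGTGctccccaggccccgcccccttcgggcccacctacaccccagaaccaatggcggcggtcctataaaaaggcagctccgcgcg
Pgk1: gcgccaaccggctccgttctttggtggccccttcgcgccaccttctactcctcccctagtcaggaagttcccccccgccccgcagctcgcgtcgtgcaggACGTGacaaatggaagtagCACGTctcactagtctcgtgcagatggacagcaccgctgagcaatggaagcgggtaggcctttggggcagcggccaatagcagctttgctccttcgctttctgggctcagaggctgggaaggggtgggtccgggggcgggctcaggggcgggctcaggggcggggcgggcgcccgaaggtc
Egln3: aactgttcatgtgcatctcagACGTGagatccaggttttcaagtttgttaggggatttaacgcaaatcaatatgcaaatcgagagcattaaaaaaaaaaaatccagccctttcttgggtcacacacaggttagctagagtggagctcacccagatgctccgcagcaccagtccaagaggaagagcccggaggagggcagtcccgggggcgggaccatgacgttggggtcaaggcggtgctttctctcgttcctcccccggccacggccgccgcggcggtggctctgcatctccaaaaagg
Slc16a3: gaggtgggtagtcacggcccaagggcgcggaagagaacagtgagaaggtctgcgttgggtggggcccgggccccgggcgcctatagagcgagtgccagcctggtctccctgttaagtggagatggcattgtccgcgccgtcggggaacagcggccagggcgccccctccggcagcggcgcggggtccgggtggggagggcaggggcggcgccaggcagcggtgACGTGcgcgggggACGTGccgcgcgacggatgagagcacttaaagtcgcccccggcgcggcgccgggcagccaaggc

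These windows lie at chr4:119108495-119108794 on the plus strand for Slc2a1, chrX:106186850-106187149 on the plus strand for Pgk1, chr12:54203825-54204124 on the minus strand for Egln3 and chr11:120948817-120949116 on the plus strand for Slc16a3. Counted over both strands, the core was present in 14 of the 25 list members with a RefSeq entry (56.0%), in 6 of the 12 fallen members with one, and in 19.7% of 27025 promoters. Slc2a1 had 52.6, 52.1 and 60.5 CPM at 3 days, against 99.2, 148 and 148 CPM at 1 day (log2 change -1.25 ± 0.15 (SE), adjusted p = 2.2e-04). Slc2a1 had 42.9, 39.9 and 40.7 CPM after saline. Pgk1, phosphoglycerate kinase, had 129.9, 148 and 143 CPM at 3 days, against 242, 310.0 and 304 CPM at 1 day (log2 change -1.0 ± 0.13 (SE), adjusted p = 3.2e-04). Egln3, an oxygen-sensing hydroxylase, had 42.7, 42.7 and 42.8 CPM at 3 days, against 78.2, 89.97 and 86.8 CPM at 1 day (log2 change -0.97 ± 0.12 (SE), adjusted p = 2.9e-04), and Slc16a3 had 15.3, 13.2 and 9.75 CPM at 3 days, against 24.4, 47.1 and 48.8 CPM at 1 day (log2 change -1.65 ± 0.31 (SE), adjusted p = 0.0057). In each of the 4 the times did not overlap and the call held in every single omission. Slc16a3 was lost without 3-day replicate 2 and 1-day replicate 3 together (adjusted p = 0.063). Slc16a3 overlaps Csnk1d on the opposite strand, so its reads are uncertain. Pfkl, the liver-type phosphofructokinase, fell likewise (76.3, 77.5 and 85 CPM at 3 days, against 149, 163 and 145 CPM at 1 day; log2 change -0.92 ± 0.11 (SE), adjusted p = 1.8e-04) and ended below saline (104, 97.5 and 111 CPM after saline; adjusted p = 0.032). Summed over the list, glycolysis genes had 4554, 4971 and 4891 CPM at 3 days, against 6697, 7888 and 7473 CPM at 1 day, and 4929, 4466 and 4712 CPM after saline. Nuclear genes of oxidative phosphorylation gave no call in either direction with edgeR or DESeq2, with 4 at an unadjusted p under 0.05 (0 of 44, median 0.12).

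Of 32 genes of the oxidative stress response and glutathione metabolism, 5 fell and 1 rose (median -0.22). The count of 5 fallen stayed within 1.5 times of itself with any single library left out and became 4 without 3-day replicate 2 and 1-day replicate 3 together. Gsta1, a glutathione transferase that can conjugate electrophiles, had 1.36, 1.396 and 0.752 CPM at 3 days, against 9.61, 14.04 and 9.7 CPM at 1 day (log2 change -3.23 ± 0.49 (SE), adjusted p = 0.0013), with reads uncertain between near-identical family members. Akr1b8, an aldose reductase-like enzyme, had 229, 280.1 and 299 CPM at 3 days, against 560.3, 1318 and 882 CPM at 1 day (log2 change -1.76 ± 0.28 (SE), adjusted p = 0.0021). Txnrd1, thioredoxin reductase, had 131, 76.6 and 160.3 CPM at 3 days, against 232, 268 and 234 CPM at 1 day (log2 change -0.99 ± 0.17 (SE), adjusted p = 0.0028). The riser was Mgst1, a microsomal glutathione transferase, with 302, 320.2 and 246 CPM at 3 days, against 209, 163 and 148 CPM at 1 day (log2 change 0.76 ± 0.15 (SE), adjusted p = 0.0062). None of these 4 overlapped between the times. Hmox1, haem oxygenase, had 69.6, 57.9 and 126 CPM at 3 days, against 164, 149 and 152 CPM at 1 day (adjusted p = 0.059, and 0.014 with DESeq2), passed without 3-day replicate 3 (adjusted p = 0.0034) and was above saline at 3 days (adjusted p = 2.0e-04).

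Genes that handle vitamin A itself rose from 1 to 3 days at a share near that of all genes (3.03% against 2.55%). Of 33 tested genes of retinoid handling and retinoic acid response, 1 rose and none fell past the threshold (median 0.03). Lrat, which esterifies retinol for storage, had 12.3, 10.01 and 5.86 CPM at 3 days, against 4.71, 2.62 and 1.44 CPM at 1 day (adjusted p = 0.078, and 0.02 with DESeq2) and passed without 3-day replicate 3 or without 1-day replicate 1 (adjusted p = 0.041 to 0.044). Cyp26b1, which degrades retinoic acid, had 18.1, 15.1 and 17.3 CPM at 3 days, against 24.2, 10.7 and 14.6 CPM at 1 day (adjusted p = 0.96). Cyp26b1 had 42.5, 58.6 and 32.4 CPM after saline; it was below saline at 3 days (log2 difference -1.42 ± 0.37, adjusted p = 0.027). Rarb, a retinoic acid receptor, had 18.9, 18.4 and 24.5 CPM at 3 days, against 17.9, 21.4 and 19.5 CPM at 1 day (adjusted p = 0.84).

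Red cell transcripts gave the 2 largest falls among the genes named by size. Hbb-bs, a beta globin, had 0.0413, 0.1196 and 0 CPM at 3 days, against 18, 17.8 and 59.05 CPM at 1 day (log2 change -9.17 ± 0.84 (SE), adjusted p = 1.8e-05). Hbb-bs had 139.6, 99.7 and 53.8 CPM after saline. Hba-a1, an alpha globin, had 0.413, 0.1595 and 0.219 CPM at 3 days, against 10.2, 10.7 and 42.5 CPM at 1 day (log2 change -6.31 ± 0.65 (SE), adjusted p = 4.3e-05). Hba-a1 had 72.2, 56.8 and 27.2 CPM after saline. Hba-a2 and Hbb-bt had 0 counts in all 3-day bladders, against 286 and 141 counts in the 1-day bladders. With those zeros set to 3 counts over the 3 mice, these genes were at least 129-fold and 63.4-fold lower at 3 days than at 1 day. Of 6 tested red cell genes 4 fell, a number that no single omission changed, and the median log2 change was -7.61, or -6.15 with the genes at 0 set at their bound. The globin genes are close copies, so the split of reads among them is uncertain. Over the list the level was 0.9499, 1.59 and 0.9402 CPM at 3 days, against 32.9, 33.9 and 118 CPM at 1 day, and 248, 183 and 95.8 CPM after saline.

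Among smooth muscle, vessel and nerve genes, 3.12%, 6.67% and 5.88% rose, against 2.55% of all genes. The fallen shares were 3.12%, 0% and 0%, against 1.69% of all genes. Of 32 contractile genes 1 rose and 1 fell (median -0.05): Hspb7, a small heat shock protein of muscle, had 40.02, 40.2 and 34.4 CPM at 3 days, against 98.3, 111 and 300.4 CPM at 1 day (log2 change -2.13 ± 0.35 (SE), adjusted p = 0.0024). Pcp4, a calmodulin regulator, had 79.3, 211 and 62.1 CPM at 3 days, against 38.7, 49.2 and 53.9 CPM at 1 day (log2 change 1.36 ± 0.37 (SE), adjusted p = 0.046), lost without 3-day replicate 2 or without 1-day replicate 1, 2 or 3 (adjusted p = 0.1 to 0.27). Acta2, smooth muscle actin, had 3897, 5514 and 2570 CPM at 3 days, against 3372, 2049 and 4167 CPM at 1 day (adjusted p = 0.59). The summed contractile level was 35350, 48930 and 25950 CPM at 3 days, against 36600, 24110 and 44790 CPM at 1 day, with broad overlap. A separate list of 28 bladder muscle receptors and channels had 2 risen (7.14%) and 1 fallen (3.57%). Its median log2 change was -0.49, with 19 members below 0, and it holds the next 2 genes. Gucy1a1, a subunit of the nitric oxide receptor, rose (26.9, 16.5 and 12.3 CPM at 3 days, against 9.12, 4.47 and 6.72 CPM at 1 day; log2 change 1.47 ± 0.28 (SE), adjusted p = 0.0058), and Trpv4, a stretch-sensitive channel, fell (93.7, 82.9 and 95.5 CPM at 3 days, against 129.5, 184 and 137 CPM at 1 day; log2 change -0.72 ± 0.13 (SE), adjusted p = 0.0052). Endothelial genes had 2 of 30 risen, Vwf and Tie1, lost without 3-day replicate 1 or without 1-day replicate 2 or 3 (adjusted p = 0.099 to 0.12) for Vwf and without 3-day replicate 1 or without 1-day replicate 2 or 3 (adjusted p = 0.087 to 0.12) for Tie1. Nerve and Schwann cell genes had 1 of 17 risen, Prph, lost without 3-day replicate 1 or 2 or without 1-day replicate 2 or 3 (adjusted p = 0.066 to 0.14).

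Markers of tissues that can be carried along with a bladder differed among libraries. Adipocyte markers summed to 532, 674 and 368 CPM at 3 days, against 1014, 596 and 1906 CPM at 1 day, with 0 of 11 called by edgeR, 4 at an unadjusted p under 0.05 and 2 called by DESeq2. Skeletal muscle markers summed to 217, 422 and 212 CPM at 3 days, against 249, 117 and 152 CPM at 1 day, with 0 of 10, 2 and 1 by the same measures. Mesothelial markers summed to 342, 262 and 412 CPM at 3 days, against 384, 356 and 267 CPM at 1 day, with 0 of 7, 0 and 0. Protein-coding genes of the mitochondrial genome summed to 18780, 15730 and 22660 CPM at 3 days, against 21810, 20860 and 37010 CPM at 1 day, with 0 of 13, 7 and 4. For each of these 4 sums the times overlapped, and their part in the results above was not tested.

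The change from 1 to 3 days was then set beside that in mice on normal diet. The test of the difference between the diets' changes called 0 genes with edgeR (smallest adjusted p 0.173), with 1732 at an unadjusted p under 0.05 (8.96%), and DESeq2 called 87. Without 1-day replicate 1 of the vitamin A group edgeR called 25, the most of any single omission. On normal diet 236 genes rose (1.22%) and 42 fell (0.217%). The collagens had a median log2 change of 0.94 on vitamin A and 1.21 on normal diet, and the fibroblast genes 1.21 and 1.06. Immediate early genes had medians of -0.73 on vitamin A and 0.05 on normal diet, and glycolysis and hypoxia genes -0.72 and -0.32.

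Among the 38 lists the mitotic genes had the largest median difference between diets. Their median log2 change was -0.44 on vitamin A, with 0 risen and 1 fallen, and 1.23 on normal diet, with 9 risen and 0 fallen of 59. The diet difference was below 0 for all 59 members (median -1.71) and had an unadjusted p under 0.05 in 52, where 4.22% of all genes had such a p in that direction. No member passed after adjustment over all genes with edgeR on all 18 libraries. DESeq2 called 9 members, and edgeR called 1 with no filter on low counts and 1 without 1-day replicate 2 on normal diet. Without 1-day replicate 1 on vitamin A the median was -1.22 and 33 members had an unadjusted p under 0.05, the lowest of the single omissions. Without 1-day replicate 3 on normal diet 38 had one. Summed over the list, vitamin A bladders had 1169, 1335 and 1854 CPM at 3 days and 2957, 1715 and 1277 CPM at 1 day, and normal-diet bladders had 2172, 1746 and 2164 CPM at 3 days and 769.7, 1303 and 516.5 CPM at 1 day. The 2 times overlapped on vitamin A and did not on normal diet.

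Single genes are given on both diets. For Mki67, in normal-diet mice its values were 144, 108 and 154 CPM at 3 days and 49.03, 69.5 and 29.5 CPM at 1 day, and the diet difference was -2.12 ± 0.64 (SE), unadjusted p = 0.0043, adjusted p = 0.33. For Incenp, in normal-diet mice its values were 47.4, 38.04 and 52.6 CPM at 3 days and 21.8, 32.96 and 19.03 CPM at 1 day, and the diet difference was -1.91 ± 0.39 (SE), unadjusted p = 1.1e-04, adjusted p = 0.17. Neither gene passed the adjusted threshold with edgeR on all 18 libraries. For Fos, in normal-diet mice its values were 148, 23.3 and 24.3 CPM at 3 days and 23.4, 17.8 and 21.98 CPM at 1 day, with 1 mouse far above the others, and the diet difference was -3.58 ± 0.82 (SE), unadjusted p = 4.9e-04, adjusted p = 0.31. For Lox, in normal-diet mice its values were 60.9, 47.2 and 63.6 CPM at 3 days and 7.17, 8.96 and 8.88 CPM at 1 day, without overlap, and the diet difference was -1.09 ± 0.31 (SE), unadjusted p = 0.0021, adjusted p = 0.31.

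**Figure D5:**
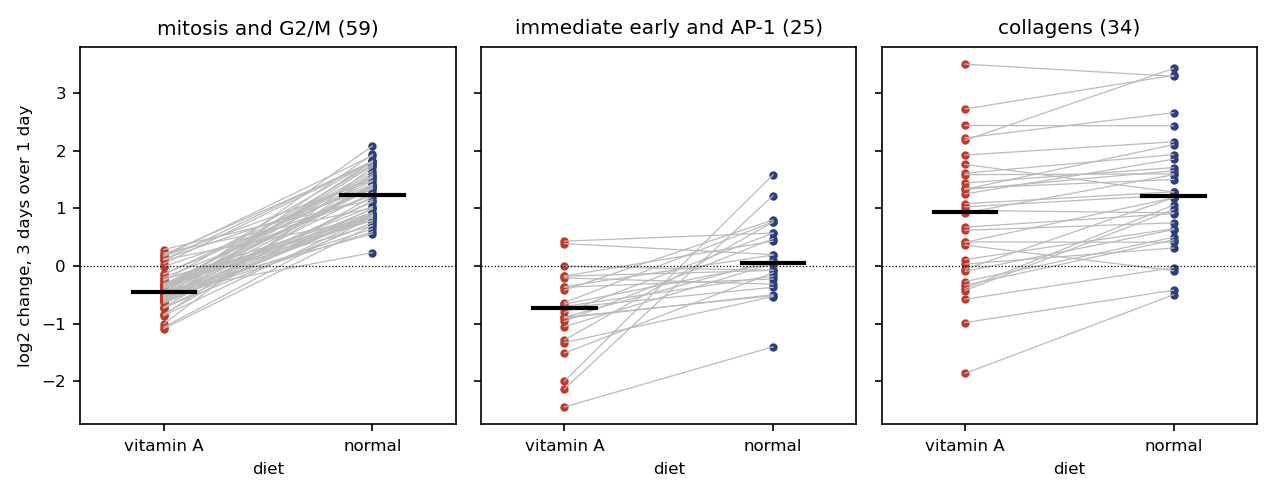
Log2 change from 1 day to 3 days after cyclophosphamide of each tested member of 3 lists, on vitamin A (red, left) and on normal diet (blue, right), with lines joining a gene and black bars at the medians. The mitotic genes have medians of -0.44 and 1.23, the immediate early genes -0.73 and 0.05, and the collagens 0.94 and 1.21.

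Relative to saline, 834 genes were higher (4.32%) and 322 lower (1.67%) at 3 days on vitamin A. With only these 6 libraries in the fit the total of 1156 became 499, and DESeq2 gave 1766. Leaving out 3-day replicates 1, 2 and 3 in turn gave 1664, 1300 and 851, and leaving out saline replicates 1, 2 and 3 gave 750, 671 and 764. Among the genes with the smallest p against saline were Ckap2, a spindle protein (40.1, 65.7 and 50.02 CPM at 3 days, and 2.35, 1.21 and 1.96 CPM after saline), and Tk1, thymidine kinase (20.03, 23.97 and 36.2 CPM at 3 days, and 2.03, 3.04 and 2.75 CPM after saline). Tk1 overlaps Afmid on the opposite strand. Bmp2, a bone morphogenetic protein, was lower at 3 days than after saline (39.6, 38.4 and 40.1 CPM at 3 days, and 95.8, 128 and 114 CPM after saline; log2 difference -1.52 ± 0.16, adjusted p = 1.3e-05). In each of these 3 genes the groups did not overlap, and none of the 3 changed past the threshold between 1 and 3 days.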

How the data were processed

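Total RNA from whole bladders was sequenced as 18 libraries, 1 per mouse, in 6 groups of 3. The deposited table holds raw counts per gene, whole numbers with 1 column per library per the file headers. The submitters' processing notes name the build GRCm39 and, without settings, the tools featureCounts 1.5.0-p3, HISAT2 2.0.5 and DESeq2 1.20.0. For strandedness and multi-mapped reads the setting is not given in the sources used here, so genes that overlap, or that have near-identical copies, have uncertain counts. Libraries held 19554132 to 34598952 counts. The deposited FPKM values and the authors' tables comparing diets were not used.

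Of 60750 features, 46333 with a gene name were kept. The 14417 without one held 0.474% to 0.81% of each library's counts. Genes with low counts were removed with filterByExpr, which left 19323. Counts were scaled with TMM and fitted in edgeR 4.0.16 (R 4.3.3, limma 3.58.1) with the robust quasi-likelihood test, 1 mean per group and 12 residual degrees of freedom. P-values were adjusted by Benjamini-Hochberg over all 19323 genes. Standard errors were derived from the log2 change and F statistic, and CPM are counts per 1000000 counts of named genes, unscaled by TMM. Alternatives were RLE and upper quartile scaling, no filter, unnamed features included, only the libraries compared, a replicate block, each replicate left out, 3-day replicate 2 and 1-day replicate 3 left out together, and DESeq2 1.42.0.

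The comparison, the 38 gene lists (1066 of 1070 members matched by symbol) and the tests were chosen with earlier results of these data known, and the promoter motifs in part after values had been seen. Genes were named by a rule. It took up to 12 each way by size of change among called genes with a mean of at least 1 log2 CPM, up to 4 per list by p, a set of key genes, and up to 5 each way by p against saline and between diets. Some genes that the rule names are not reported here. Other named members complete a count of 5 or fewer. Promoters are RefSeq sequences, the first listed for each gene, matched by gene identifier for 719 genes among the tested list members. The AP-1 site TGACTCA, on either strand, was in 0 of 20 immediate early promoters and in 5.17% of all. The edgeR script was tested on simulated data.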

Additional observations from a re-analysis of the deposited data

How the results depend on the processing

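The count of genes changed between 3 days and 1 day on vitamin A was 819, of which 492 rose, 327 fell and 503 changed over 2-fold. These became 17, 7, 10 and 17 with only the 6 libraries compared, 237, 143, 94 and 149 without 3-day replicate 2 and 1-day replicate 3 together, and 1726, 917, 809 and 948 with DESeq2. Leaving out 1 library at a time gave 316 to 1335 genes in all, 184 to 828 risen, 132 to 580 fallen and 234 to 843 over 2-fold. The count of genes differing from saline at 3 days, 1156, became 499 with only the libraries compared and 1766 with DESeq2, and 671 to 1664 with 1 library left out. The count of genes whose change differed between diets, 0, became 9 with no filter on low counts, 87 with DESeq2 and 0 to 25 with 1 library left out. The causes were not tested. RLE, upper quartile scaling, no filter and unnamed features included gave 837, 838, 775 and 826 changed genes, and the share that rose was 60.1%, against 56.5% with RLE scaling, 61.0% with upper quartile scaling and 53.1% with DESeq2.

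The labels do not say whether replicate numbers pair the mice, and no pairing was used in the main fit. Deviations of same-numbered mice at 3 days and 1 day correlated at 0.30, 0.01 and -0.20. Those of differently numbered mice correlated at -0.30 to 0.29, and so few values cannot show whether mice were paired. With the number as a replicate block 711 genes changed (434 risen and 277 fallen). Of the 101 genes named by the rule and past the threshold, 61 kept their call in all 6 fits with 1 library left out, 46 without the 2 libraries together, 12 with only 6 libraries, 85 without the filter, and 101 with RLE scaling, upper quartile scaling and DESeq2. None of the values recomputed changed sign while past the threshold. A two-sided exact permutation test of a single gene between 3 and 3 mice cannot go below p = 0.1. Where a group had 0 counts, as for Hba-a2 and Hbb-bt, the depth gives only a bound on the fold.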
